A study of Mus musculus with 23 samples.

Results

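The heavy chain variable genes of mouse immunoglobulin were taken as every row of the deposited count table whose symbol starts with Ighv followed by a digit. The rule found 113 of 22488 genes in 16 families, of which family 1 is the most numerous with 53 members. RNA was measured in 23 libraries of a low-input poly(A) protocol that cuts and tags cDNA with the Tn5 transposase, and the study asked how such libraries behave as the input falls. CD3+ T cells from the spleens of C57 mice gave 12 of these, made from 100, 500, 1000 or 10000 cells in triplicate. Dilutions of purified RNA gave 11, in duplicate at 0.1 ng and in triplicate at 0.5, 1 and 5 ng. All libraries carry the same strain label and an age of 6 to 18 weeks, and no treatment or genotype is given. The labels name the RNA as RAW 264.7, a macrophage line, while the series design calls it RNA from mouse spleen. Nothing in the labels ties replicates to different mice, and the spread behind each p-value may be technical.

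A B cell builds its heavy chain by joining a variable gene to a diversity and a joining segment, a cut-and-paste step made by the RAG recombinase. The joined variable exon is then transcribed and spliced to a constant gene, such as Ighm for IgM or Igha for IgA, so transcripts of B cells and their antibody-secreting descendants, plasma cells, carry variable gene sequence. Each B cell clone carries its own joined exon, and different clones can use the same variable gene. The mix of variable genes in a sample is called its repertoire. T cells join T cell receptor genes in place of these. In bulk samples, fewer cells of a type and less RNA per cell cannot be told apart.

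Members are short and alike, which matters for reading their counts. All 113 matched an immunoglobulin V gene on chromosome 12 in GENCODE M21 (GRCm38), a build other than the mm8 named in the submitters' processing notes, so no coordinates are given. RefSeq calls 111 of them V segments and Ighv7-1 and Ighv7-3 V segment pseudogenes. Exon lengths ran from 294 to 480 bases with a median of 353. When each transcript was cut into windows of 50 bases, 15 members shared at least 50% of their windows with another annotated Ighv transcript, and 20 shared none. Counts of the first kind are uncertain. Ighv1-9, the member that led the 500-cell libraries, shared 0.66% of its windows, while Ighv1-53 shared 57.6% and Ighv1-26 49.0%.

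The last 300 coding bases of 6 members are shown. Ighv1-9 is followed by Ighv1-63, its nearest relative among the members, from which it differed at 34 of 351 aligned bases (90.3% identity). The other 4 were, beside Ighv1-9, the members with the highest shares of Ighv counts in 5 ng RNA. Capitals mark the codons for tyrosine, tyrosine and cysteine near the end of the variable exon, just before the stretch where the junction with the diversity segment is made. The letters TANTANTGT, searched on the coding strand only, occurred in 87 of 113 members (77.0%). Sequences run 5′ to 3′ on the coding strand to the end of the variable exon and come from GENCODE M21 transcripts.
Ighv1-9: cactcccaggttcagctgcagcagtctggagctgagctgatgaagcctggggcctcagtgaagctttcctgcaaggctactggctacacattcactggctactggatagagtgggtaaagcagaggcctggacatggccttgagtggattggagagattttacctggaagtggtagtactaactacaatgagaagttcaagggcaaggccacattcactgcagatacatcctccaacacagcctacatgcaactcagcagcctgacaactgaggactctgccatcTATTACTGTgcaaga
Ighv1-63: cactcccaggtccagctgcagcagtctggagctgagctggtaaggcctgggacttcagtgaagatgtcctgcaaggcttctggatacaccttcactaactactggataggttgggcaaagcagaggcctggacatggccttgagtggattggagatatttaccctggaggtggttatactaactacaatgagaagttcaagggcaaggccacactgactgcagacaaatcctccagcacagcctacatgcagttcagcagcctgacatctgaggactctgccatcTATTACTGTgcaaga
Ighv5-17: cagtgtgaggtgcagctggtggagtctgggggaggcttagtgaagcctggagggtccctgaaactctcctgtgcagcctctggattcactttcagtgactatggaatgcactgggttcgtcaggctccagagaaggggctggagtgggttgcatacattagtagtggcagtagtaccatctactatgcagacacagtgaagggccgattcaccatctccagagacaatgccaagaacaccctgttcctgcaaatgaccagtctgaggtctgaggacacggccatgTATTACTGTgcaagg
Ighv3-6: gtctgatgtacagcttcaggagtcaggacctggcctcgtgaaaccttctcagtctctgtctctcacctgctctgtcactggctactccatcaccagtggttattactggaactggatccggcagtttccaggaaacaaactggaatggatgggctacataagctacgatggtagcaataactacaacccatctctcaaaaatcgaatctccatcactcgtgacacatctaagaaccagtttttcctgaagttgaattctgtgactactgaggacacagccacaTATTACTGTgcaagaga
Ighv1-26: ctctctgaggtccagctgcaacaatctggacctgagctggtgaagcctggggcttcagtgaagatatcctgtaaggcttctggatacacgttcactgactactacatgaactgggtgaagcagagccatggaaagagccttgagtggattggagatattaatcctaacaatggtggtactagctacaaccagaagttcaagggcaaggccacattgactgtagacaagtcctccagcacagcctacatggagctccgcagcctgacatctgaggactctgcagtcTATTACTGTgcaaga
Ighv1-53: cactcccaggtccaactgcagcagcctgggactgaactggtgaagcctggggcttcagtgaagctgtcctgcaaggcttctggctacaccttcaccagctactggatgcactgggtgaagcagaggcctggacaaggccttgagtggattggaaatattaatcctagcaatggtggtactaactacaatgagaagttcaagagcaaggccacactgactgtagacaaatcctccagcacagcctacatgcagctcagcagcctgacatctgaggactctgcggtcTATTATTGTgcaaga

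Totals ran from 1737067 to 7908638 counts per library, and the precision for single members follows from how few of these fell on Ighv genes. Libraries of 500, 1000 and 10000 T cells held 753 to 870, 108 to 135 and 185 to 240 Ighv counts, and those of 0.1, 0.5, 1 and 5 ng RNA held 1995 to 2292, 5278 to 5970, 4550 to 5810 and 10550 to 11863. A member at 0 in a library of 1000 cells could still hold up to 2.78% of the Ighv counts, against 0.0284% in a library of 5 ng RNA (3 counts of the total). Such limits, the fold bounds below and all intervals cover counting error only and take each count as independent. Of the members with a count, 76.6% to 86.7% had an even count in libraries of 500, 1000 and 10000 T cells. In the RNA libraries 42.3% to 64.8% did. Over all genes with a count the even share was 59.5% to 63.3% in those T cell libraries and 57.9% to 70.7% in the RNA libraries, and these ranges overlapped. Both reads of a pair may thus have been counted, and the limits and intervals may be too narrow. Whether this holds more for T cells was not tested. In the marker check, 14 of 14 T cell genes were higher in 10000 T cells than in 5 ng RNA, and 16 of 16 B cell genes, 10 of 10 plasma cell genes and 10 of 10 macrophage genes were lower. The 5 ng libraries thus held transcripts of B, plasma and T cells beside those of macrophages. B cell genes took 0.965% to 0.981% of their counts, T cell genes 0.201% to 0.214% and macrophage genes 0.275% to 0.282%.

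Among the 100-cell libraries replicate 3 stood apart. It held 2980 Ighv counts, against 162 and 199 in replicates 1 and 2, and its B cell genes took 0.515% of counts, against 0.0525% and 0.0625%. No 10000-cell library exceeded 0.0806%. Values at 100 cells are therefore given per library, with and without replicate 3.

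The summed level of the 113 members differed by 25.7 times between the 2 materials at their highest inputs. It was 51.6, 53.8 and 70.5 CPM (counts per 1000000 of the library total) in 10000 T cells, against 1542, 1473 and 1500 CPM in 5 ng RNA. Means were 58.6 ± 10.4 CPM and 1505 ± 34.7 CPM (SD, n = 3 each), and the groups did not overlap. Within the T cells the sum did not follow the number of cells. It was 84.2, 108 and 792 CPM at 100 cells, 350, 338 and 339 CPM at 500, and 45.7, 49.7 and 47.5 CPM at 1000. The 1000-cell libraries all lay below the 10000-cell libraries, with a ratio of means of 0.813, while all 100-cell and 500-cell libraries lay above them. The 500-cell mean was 5.84 times the 10000-cell mean. At 100 cells the ratio was 5.60 with replicate 3 in and 1.64 without it, and replicates 1 and 2 were each above every 10000-cell library. No p-value is given for these sums.

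**Figure D1:**
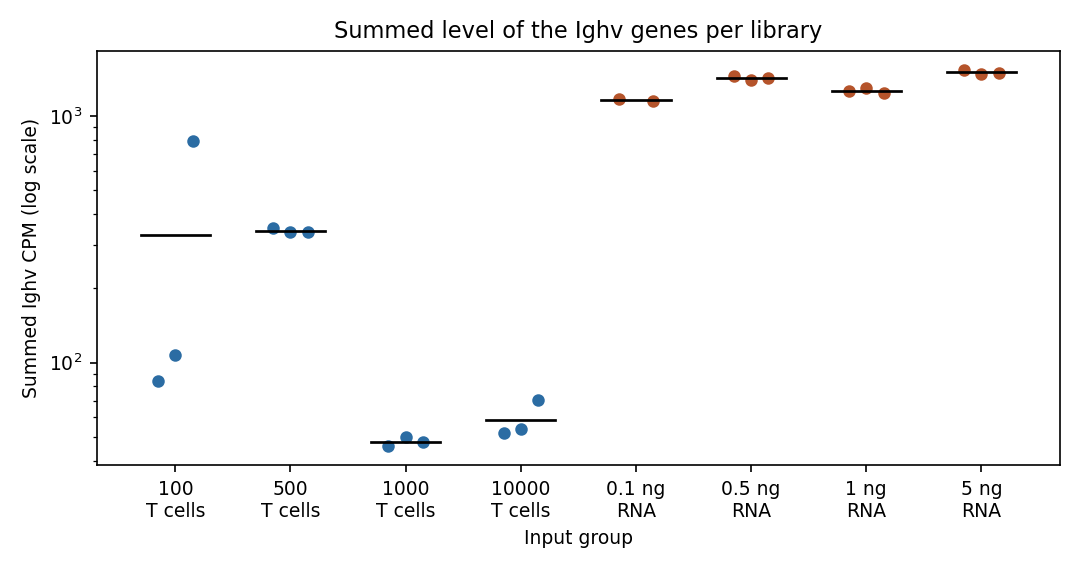
Summed Ighv CPM per library on a log axis, by input group, with points as libraries and bars as group means. The 500-cell libraries sit between 338 and 350 CPM, the 10000-cell libraries between 51.6 and 70.5 CPM and the 5 ng RNA libraries between 1473 and 1542 CPM, and replicate 3 stands apart at 100 cells with 792 CPM.

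In the diluted RNA the sums lay closer together. They were 1168 and 1148 CPM at 0.1 ng, 1459, 1395 and 1425 CPM at 0.5 ng, and 1267, 1298 and 1241 CPM at 1 ng. All libraries of these inputs lay below all 5 ng libraries. The ratios to the 5 ng mean were 0.769, 0.948 and 0.843, so the order of the inputs was not the order of the sums.

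At 5 ng the RNA held a broad repertoire. Of the 113 members, 103 had a count in at least 1 of the 3 libraries, 93 had one in all 3, and 50 averaged 10 CPM or more. The median member stood at 5.70 CPM, and 15 members together held just over 50% of the pooled 33451 Ighv counts. The effective number of genes, which is the exponential of the Shannon entropy of the shares and equals the number of members if all were equally frequent, was 55.5, 54.5 and 54.1. No member took more than 6.19% of the Ighv counts of a 5 ng library.

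The leading 10 members at 5 ng came from 4 families. Ighv5-17 had the highest share, with 6.19%, 5.79% and 5.30% of Ighv counts in the 3 libraries, or 86.8 ± 8.06 CPM (SD, n = 3). It was followed by Ighv1-9 with 4.89%, 4.87% and 4.18%, Ighv3-6 with 4.50%, 4.58% and 4.52%, Ighv1-26 with 4.19%, 4.26% and 4.98%, and Ighv1-53 with 4.54%, 4.44% and 4.24%. The ranges of these 4 overlapped, so their order is not settled by these libraries. Ighv1-12, Ighv1-80, Ighv1-81, Ighv14-1 and Ighv1-82 averaged 4.15%, 3.19%, 2.96%, 2.80% and 2.68%. Per kilobase of exon Ighv5-17 held 5.20 ± 0.408% (SD, n = 3), and Ighv1-26 led in replicate 3.

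Family 1 took 57.6 ± 0.260% of Ighv counts at 5 ng, family 5 took 10.3 ± 1.03%, family 14 took 6.74 ± 0.453% and family 3 took 5.79 ± 0.105% (SD, n = 3 each). In the order of the locus, the 57 members farther from the constant genes, 49 of them of family 1, held 55.6 ± 0.846% and the 56 nearer ones, which end with Ighv1-9, held the rest. The pseudogene-labelled Ighv7-3 was counted too, at 26.1 ± 3.29 CPM, and Ighv7-1 at 6.15 ± 2.48 CPM (SD, n = 3 each). Ighv1-62-2, which shared all of its windows, averaged 2.73 ± 0.576 CPM. At the other end Ighv1-16 and Ighv1-62-1 had no count in any of the 23 libraries.

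**Figure D2:**
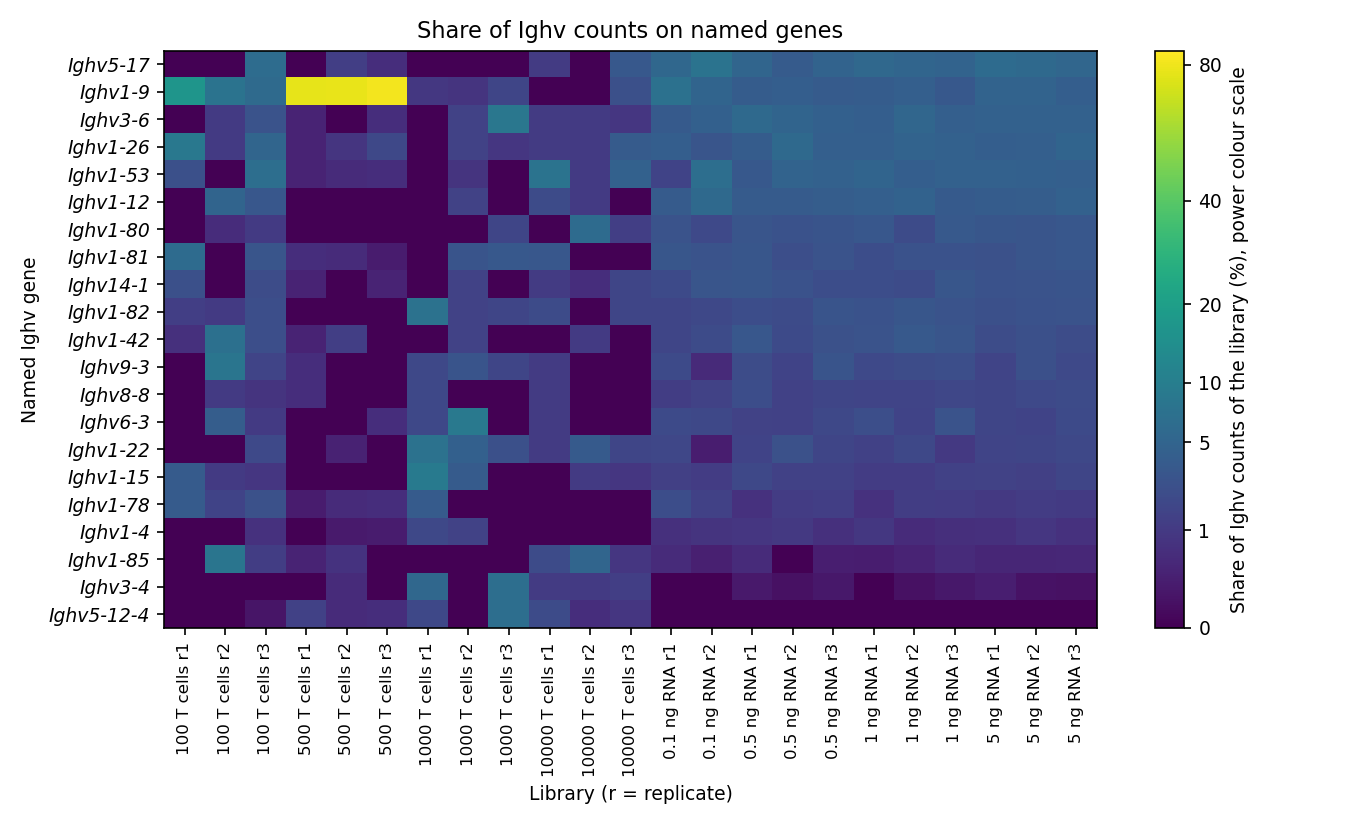
Share of the Ighv counts of each library (columns) on 21 named members (rows, ordered by mean share in 5 ng RNA), with colour on a power scale in percent. Ighv1-9 takes 77.0% to 81.7% in the 500-cell libraries, the RNA columns look alike, and the columns of 1000 and 10000 T cells are patchy.

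In T cells at 10000 the members were lower almost throughout. All 3 T cell libraries lay below all 3 of 5 ng RNA for 80 of the 110 members with a count in either group, against 17.2% of all genes. They lay above for 2 members, against 36% of all genes. These were Ighv5-12-4, with 7 counts in T cells and 0 in 5 ng RNA, and Ighv7-2, with 10 and 2, and neither passed the filter on low counts. Of the 70 members that passed the filter on low counts, 69 were called lower and 0 higher (edgeR quasi-likelihood, Benjamini-Hochberg adjusted), where 27.3% of all genes tested were called lower and 28.7% higher. DESeq2 called 75 of 110 members lower and 0 higher, where it called 9985 of 21629 genes in either direction. In edgeR 69 of the 70 had an unadjusted p under 0.05. Members passed that filter largely through their level in the RNA, so this count describes the test and is not support for it. Ighv8-5 was the exception, with 1.14 ± 1.12 CPM in the T cells against 2.59 ± 0.476 CPM in 5 ng RNA (log2 fold change -1.29, edgeR adjusted p = 0.107). It is named because it was the exception.

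Ighv5-17 had 2, 0 and 8 counts in the 3 libraries of 10000 T cells, against 653, 639 and 629 counts in 5 ng RNA. Its log2 fold change was -6.60 (SE 0.275), and -8.32 without replicate 3 of the T cells. Ighv3-6 had 2 counts in each T cell library, against 475, 505 and 536 in 5 ng RNA, with a log2 fold change of -6.97 (SE 0.292). For both, the T cell libraries were near 0 and the groups did not overlap. Ighv1-9 had 0, 0 and 6 counts in T cells, against 516, 538 and 496 in 5 ng RNA. Its log2 fold change was -7.00 (SE 0.323), and without T cell replicate 3 the T cells had no count of it.

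Several members had 0 to 2 counts over the 3 T cell libraries together. Ighv1-78 had 0 counts, against 350 in 5 ng RNA, and was at least 55.7-fold lower. Ighv1-4 had 0 counts, against 235, and was at least 37.4-fold lower. Those bounds set the T cells at 3 counts over the group. Ighv1-42, Ighv9-3, Ighv8-8 and Ighv6-3 had 2 counts each, and their ratios of 5 ng RNA over T cells were 186 (95% counting interval 51.3 to 1538), 161 (44.4 to 1331), 156 (43.1 to 1293) and 141 (38.8 to 1165). Ighv1-53 led 2 of the 3 T cell libraries and was still lower there. It had 14, 2 and 11 counts in T cells, against 479, 490 and 503 in 5 ng RNA (log2 fold change -4.80, SE 0.244). Ighv1-85 had 4, 10 and 2 counts, against 33, 35 and 41, with a log2 fold change of -1.80 (SE 0.569, edgeR adjusted p = 0.00568), or -2.63 without replicate 2 of the T cells. Over the 45 called members with more than 3 counts in each group, the log2 fold changes ran from -7.00 to -1.80.

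**Figure D3:**
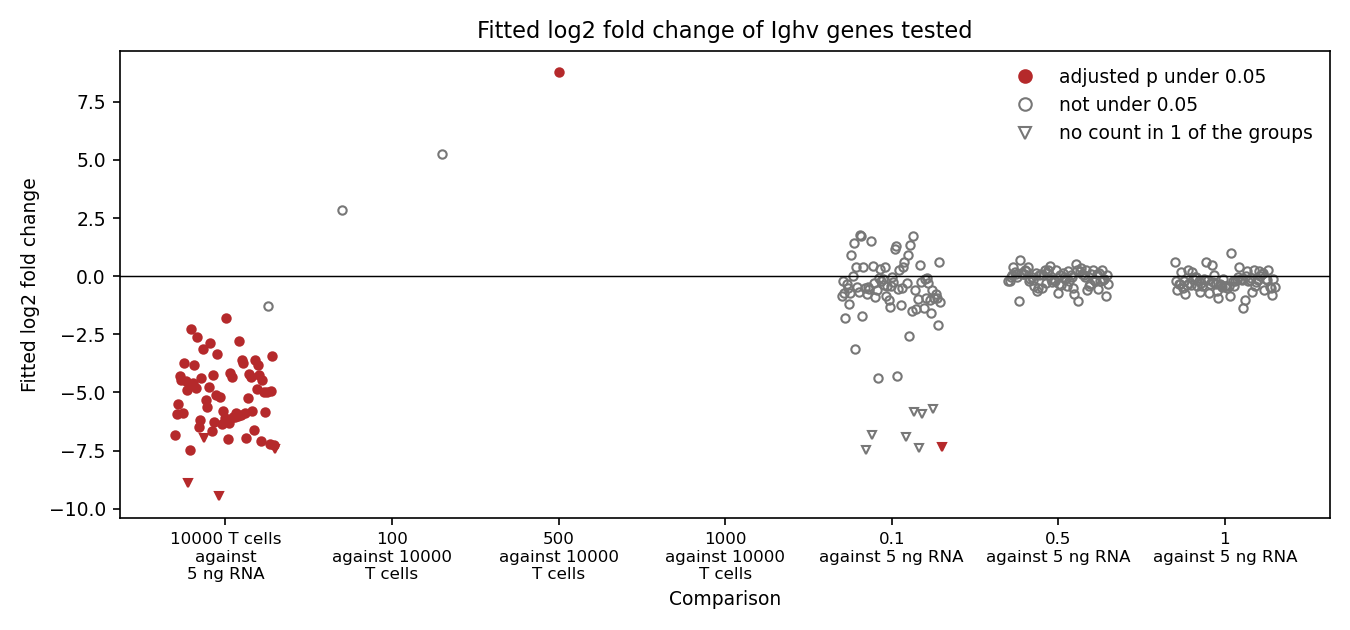
Fitted log2 fold change of each Ighv member tested in each comparison, with filled red points for an edgeR adjusted p under 0.05 open grey points for the rest, and triangles for members with no count in 1 of the groups, whose fitted values depend on the prior count. All points of 10000 T cells against 5 ng RNA lie below 0, only Ighv1-9 was tested and called at 500 cells, 0 members were tested at 1000 cells, and members with more than 3 counts in each group run from -2.11 to 1.75 at 0.1 ng, from -1.08 to 0.70 at 0.5 ng and from -1.35 to 0.98 at 1 ng.

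The other genes of the pathway were described by fixed lists. Of 8 heavy chain constant genes 7 were lower in 10000 T cells than in 5 ng RNA, and Ighe, the IgE constant gene, was not called (3.86 ± 0.533 and 3.17 ± 1.45 CPM). Ighm averaged 837 ± 61.2 CPM in the T cells against 19639 ± 195 CPM in 5 ng RNA, a log2 fold change of -4.66 (SE 0.0334). Ighg2c, an IgG constant gene, stood at 5.84 ± 0.240 CPM and 2462 ± 63.4 CPM. Dntt, the terminal transferase that adds bases at junctions, was higher, and Polm, a polymerase of end joining, was lower; no tally is given for the genes of recombination. Dntt averaged 11.6 ± 1.93 CPM in the T cells against 3.39 ± 1.47 CPM in 5 ng RNA (SD, n = 3 each). Rag1, a subunit of the recombinase, did not pass (3.94 ± 1.95 and 2.73 ± 1.18 CPM, edgeR adjusted p = 0.551). Of 8 genes for transcription from variable gene promoters 6 were lower. They included the octamer factor Pou2f2, with 77.4 ± 7.63 CPM in the T cells against 256 ± 12.5 CPM in 5 ng RNA, while the octamer factor Pou2f1 (60.2 ± 12.2 and 61.4 ± 6.07 CPM) and Ikzf1, a lymphoid zinc finger factor (845 ± 15.7 and 779 ± 10.2 CPM), did not pass.

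Although the sum was 25.7 times lower, variable and constant counts kept a similar proportion. Per 100 counts on the constant genes there were 5.60, 5.95 and 6.85 Ighv counts in 10000 T cells, against 5.65, 5.47 and 5.47 in 5 ng RNA, and the groups overlapped. The constant genes differed in kind. Ighm and Ighd, the IgM and IgD genes of B cells that have not switched class, took 97.0% to 97.9% of constant counts in 10000 T cells, against 77.2% to 77.8% in 5 ng RNA. Igha took 0.212% to 0.488%, against 4.41% to 4.46%, and IgG genes took 1.51% to 1.98%, against 17.8% to 18.4%.

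Shares of single members varied more between T cell libraries than between RNA libraries. The overlap of 2 share profiles, the sum over members of the smaller share, was 35.5% to 40.1% between libraries of 10000 T cells and 91.7% to 92.7% between those of 5 ng RNA. Across the 2 groups it was 33.3% to 49.4%. With each library thinned to the lowest Ighv total of any library, an alternative chosen after seeing the data, 5 ng RNA gave 59.6% to 60.6% among its own libraries, 10000 T cells gave 30.9% to 35.3%, and the cross pairs gave 28.4% to 38.2%. The ranges within 10000 T cells and across to the RNA overlapped both ways. The effective number was 49.6, 46.5 and 56.2 in T cells and, thinned, 42.9, 40.1 and 45.3, against 37.9, 37.2 and 37.5 in thinned 5 ng RNA. At equal counts the T cell libraries had the higher values, without overlap. Equal counts may stand for fewer read pairs in T cells, where even Ighv counts were more frequent.

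**Figure D4:**
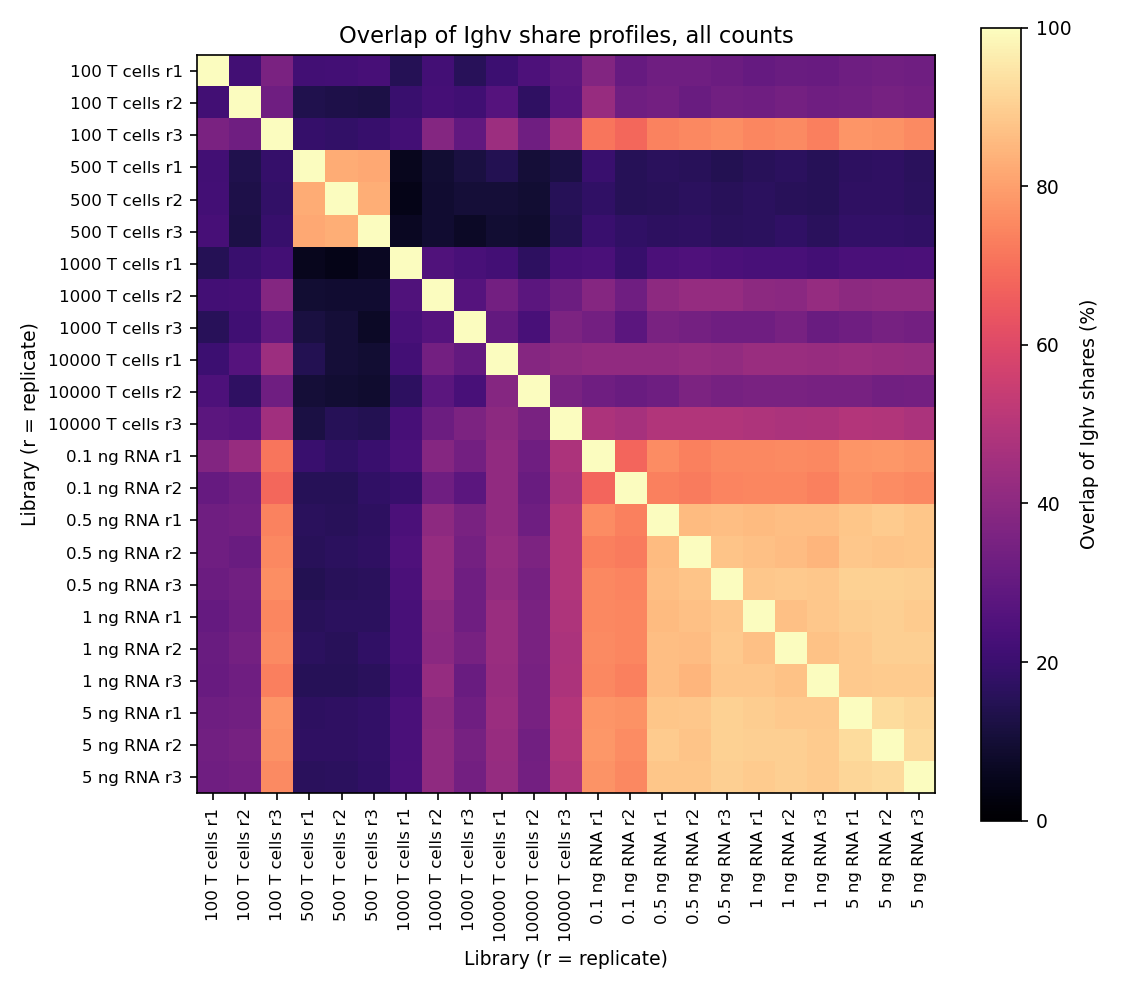
Overlap of Ighv share profiles between all pairs of the 23 libraries in percent, from all counts, so that depth enters the values. The block of 500-cell libraries (81.9% to 82.9% among themselves) shares little with the rest, and 100-cell replicate 3 falls with the RNA libraries, at 75.7% to 78.0% with 5 ng.

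Some counts in T cells were on members that the RNA hardly held. The 33 members under 0.1% of the pooled 5 ng Ighv counts took 9.88%, 9.05% and 2.72% of Ighv counts in 100 T cells, 7.92%, 7.82% and 3.45% in 500 T cells, an average of 27.1 ± 3.58% in 1000 T cells (SD, n = 3) and 17.8%, 16.4% and 24.6% in 10000 T cells. They took 0.897% to 1.18% in 5 ng RNA, where the choice of members fixes the value, and 0.175% to 1.54% over the libraries of 0.1, 0.5 and 1 ng. This set, 33 of the 113 members, was chosen after its values were seen, and an even spread of counts over members was not tested. In all, 7 members had a count in a T cell library and none in any of the 11 RNA libraries, which together held 70902 Ighv counts. Ighv5-12-4 was the most frequent of these. It had 38 counts spread over 9 of the 12 T cell libraries, with 4, 1 and 2 of them at 10000 cells.

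At 500 cells a single member made up most of the signal. Ighv1-9 had 603, 677 and 615 counts in the 3 libraries, against 0, 0 and 6 at 10000 cells. Its share of Ighv counts was 77.0% (95% exact interval 73.9% to 79.9%), 77.8% (74.9% to 80.5%) and 81.7% (78.7% to 84.4%), and the next member took at most 1.86%. It stood at 270 ± 6.92 CPM at 500 cells and 0.588 ± 1.02 CPM at 10000 cells (SD, n = 3 each). The log2 fold change was 8.78 (SE 0.316, edgeR adjusted p = 3.76e-16), and without replicate 3 of the 10000-cell group, whose other 2 libraries had no count, the member was at least 648-fold higher at 500 cells (3 counts over those 2 libraries). It was the only member that passed the filter on low counts in this comparison, and 0.746% of all genes tested were called higher. It passed that filter through its counts at 500 cells, so the call describes the test and is not support for it. The groups did not overlap for 4 members above and 5 below of 108, against 8.39% and 9.46% of all genes.

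The rest of the family looked unlike this. Without Ighv1-9 the summed level at 500 cells was 80.4, 74.9 and 62.1 CPM, against 51.6, 53.8 and 68.8 CPM at 10000 cells, and those ranges overlapped. The effective number at 500 cells was 3.81, 3.65 and 3.02, the lowest of any group. It averaged 31.7 when Ighv1-9 was left out, against 49.6, 46.5 and 56.2 with all members at 10000 cells. These values are not at equal counts. Also without Ighv1-9, family 1 held 47.2%, 45.6% and 66.7% of the counts at 500 cells, against 49.2%, 51.3% and 56.4% at 10000 cells. The farther members held 51.7%, 45.1% and 65.9%, against 53.5%, 57.4% and 55.6%. Both measures overlapped between the groups. With Ighv1-9 in, share profiles of the 500-cell libraries overlapped by 81.9% to 82.9% among themselves and by 8.84% to 15.5% with those of 10000 cells.

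**Figure D5:**
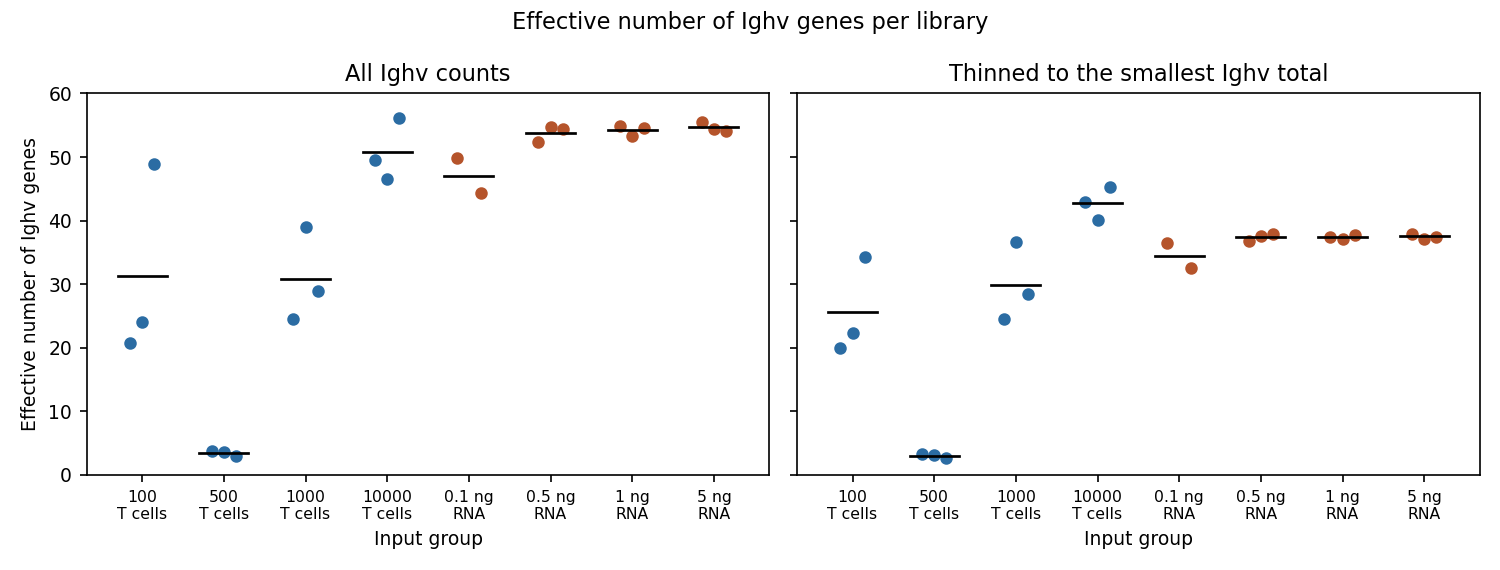
Effective number of Ighv genes per library from all counts (left) and after thinning to the smallest Ighv total of any library (right), with points as libraries and bars as group means. The 500-cell libraries lie at 3.02 to 3.81 on the left, and after thinning the 10000-cell libraries (40.1 to 45.3) lie above the 5 ng RNA libraries (37.2 to 37.9).

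Along with Ighv1-9, the constant gene of IgA and genes of plasma cells were higher at 500 than at 10000 cells. Igha took 71.4%, 69.0% and 67.8% of constant counts at 500 cells, against 0.212%, 0.488% and 0.371% at 10000. Jchain, the chain that links IgA or IgM units, averaged 319 ± 35.6 CPM and 5.35 ± 1.19 CPM (SD, n = 3 each). Of 8 plasma cell genes tested 4 rose, Jchain and Mzb1, an endoplasmic reticulum cofactor of antibody secretion (log2 fold change 2.70, SE 0.560), Eaf2, an elongation factor partner (3.02, SE 0.603), and Irf4, a plasma cell transcription factor (0.97, SE 0.265). Of 15 B cell genes tested 4 rose, Fcrla, Ebf1, Fcer2a and Ms4a1, with log2 fold changes of 1.34, 1.21, 0.99 and 0.66, and 3 of 9 macrophage genes were lower. Over all genes tested 0.746% were called higher and 2.46% lower. Ighd rose by 0.66 (SE 0.148), while Ighm did not pass (891 ± 43.0 and 837 ± 61.2 CPM). Ighv counts per 100 constant counts were 10.1, 9.60 and 9.89 at 500 cells, against 5.60, 5.95 and 6.85 at 10000, without overlap. Whether these genes and Ighv1-9 come from the same cells was not tested.

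At 100 cells the libraries disagreed. Ighv1-9 had 27, 15 and 179 counts, against 0, 0 and 6 at 10000 cells, and its rank among the members was 1, 3 and 3. The log2 fold change was 5.25 (SE 1.22) and did not pass (edgeR adjusted p = 0.162), and without replicate 3 of the 100-cell group it was 4.14 (edgeR adjusted p = 0.119). Without replicate 3 of the 10000-cell group, whose 6 counts were the only ones, it was at least 70.5-fold higher at 100 cells over the same limit (edgeR adjusted p = 0.835). That bound pools all 100-cell libraries, and 179 of their 221 counts came from replicate 3. No bound was computed without replicate 3 of the 100-cell group. With all libraries DESeq2 gave a log2 fold change of 5.36 (adjusted p = 0.000457). The edgeR quasi-likelihood test called 0 of the 2 members tested and 0% of all genes, with 1 member at an unadjusted p under 0.05. DESeq2 called 2 of 3 members and 3.03% of all genes. Without replicate 3 of the 100-cell group edgeR again called 0 of 2 members, with 1 at an unadjusted p under 0.05, and 2.36% of all genes. The other member tested, Ighv1-53, had 4, 0 and 200 counts, against 14, 2 and 11. All 100-cell libraries lay below all 10000-cell libraries for 7 of 108 members and above for 6, against 12.3% and 6.16% of all genes.

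Replicate 3 of the 100-cell group resembled the RNA. Its profile overlapped those of 5 ng RNA by 75.7% to 78.0%, against 32.7% to 34.7% for replicates 1 and 2, and after thinning by 54.3% to 55.3%, against 28.8% to 31.9%. Its effective number was 48.9 and those of replicates 1 and 2 were 20.7 and 24.0. IgG genes took 19.0% of its constant counts and Igha 4.08%, close to the 5 ng libraries. T cell genes took 0.478% of its counts, against 0.741% and 0.766% in replicates 1 and 2, and its macrophage genes took 0.113%, against 0.00494% and 0.00579%. Replicates 1 and 2 differed from each other as well, with an overlap of 21.6% and with Ighv1-9 leading the first and Ighv9-3 the second. In these 2 libraries Igha had 10 and 26 counts, against 1777 in replicate 3. The part of other cells in replicate 3 was not tested.

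At 1000 cells 0 members passed the filter of the edgeR test, which called 438 of 13415 genes. DESeq2 gave 0 members an adjusted p, so it could call none, and it called 784 of 10356 genes. It had 4 members at an unadjusted p under 0.05, and without the filter edgeR had 5 such members. Ighv1-9 had 1, 1 and 2 counts, against 0, 0 and 6 at 10000 cells, and the leading members of the 3 libraries, Ighv1-15, Ighv6-3 and Ighv3-6, held 10, 12 and 10 counts. All libraries of 1000 cells lay below those of 10000 cells for 7 of 109 members and above for 2, against 9.53% and 7.39% of all genes. The effective number was 24.5, 39.0 and 28.9, against 49.6, 46.5 and 56.2 at 10000 cells. After thinning it was 24.5, 36.7 and 28.4, against 42.9, 40.1 and 45.3, and the 1000-cell libraries stayed below. Replicate 1 of 1000 cells had the lowest Ighv total and was itself not thinned. If both reads of a pair were counted, equal counts are not equal numbers of read pairs. Depth may therefore still enter this difference.

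In the RNA dilution, profiles at 0.5 and 1 ng were nearer to 5 ng than those at 0.1 ng. Profiles overlapped with 5 ng by 75.1% to 78.2% for 0.1 ng, by 87.6% to 90.5% for 0.5 ng and by 88.9% to 90.2% for 1 ng, and after thinning by a mean of 55.7%, 59.3% and 59.4%. Members with a count numbered 72 and 71 at 0.1 ng, 87, 94 and 93 at 0.5 ng, 90, 91 and 96 at 1 ng and 99, 97 and 100 at 5 ng. Thinned, 45.5 and 42.1 members were seen at 0.1 ng, against 46.9 to 47.5 at 5 ng. The thinned effective number was 36.4 and 32.5 at 0.1 ng, against 37.2 to 37.9 at 5 ng, without overlap.

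At 0.1 ng, 33 members had no count in either library, 23 of which had counts at 5 ng, and the highest of these at 5 ng was Ighv1-54 with 4.30 CPM. All of the leading 10 members were counted in both libraries. Ighv9-4 alone was called, with 0 counts at 0.1 ng and 86 at 5 ng, at least 4.77-fold lower (edgeR adjusted p = 0.0491). That made 1 of 84 members tested, where 6.55% of all genes tested were called lower, and DESeq2 called 10 members and 20% of all genes. Leaving out either 0.1 ng library leaves 1 in that group, whose spread is then taken from 5 ng, so those counts cannot be compared. Without any 1 of the 5 ng libraries edgeR called 0 members and at most 1 of all genes. In those fits 7 or 8 members had an unadjusted p under 0.05. Ighv9-4 is named because it was the single call. Both 0.1 ng libraries lay below all 5 ng libraries for 44 of 103 members and above for 6, against 26% and 15.9% of all genes. The median log2 fold change was -0.54 over the members tested and -0.07 over all genes tested. Single members also varied between the 2 libraries at 0.1 ng, as Ighv1-53 took 1.57% (95% exact interval 1.10% to 2.17%) in replicate 1 and 6.72% (5.66% to 7.91%) in replicate 2. Ighv1-9, with 7.29% and 5.01%, led replicate 1.

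At 0.5 ng the edgeR quasi-likelihood test called 0 of 78 members, where 5.09% of all genes tested were called, with 3 members at an unadjusted p under 0.05. DESeq2 called 1 member and 10.4% of all genes, and edgeR called 1 without replicate 1 of 0.5 ng. All 0.5 ng libraries lay below all 5 ng libraries for 9 of 104 members and above for 2, against 10.9% and 8.42% of all genes. The median log2 fold change was -0.04 over members and 0.00 over all genes tested, with 37 members above 0 and 41 below. At 1 ng it called 0 of 77, where 0.0238% of all genes were called, with 13 members at an unadjusted p under 0.05, and DESeq2 called 2 members and 1.03% of all genes. There the median was -0.22 over members and 0.00 over all genes tested, with 15 members above 0 and 62 below. Ighv1-9 averaged 48.7 ± 6.57 CPM at 1 ng and 70.0 ± 6.55 CPM at 5 ng (SD, n = 3 each), a log2 fold change of -0.52 (SE 0.131, edgeR adjusted p = 0.129). All 3 libraries of 1 ng lay below those of 5 ng for 21 of 104 members and above for 0, against 7.7% and 5.81% of all genes. These comparisons and that of 0.1 ng share the same 5 ng libraries.

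Variable counts and constant counts did not move together in the dilution. Per 100 constant counts there were 5.51 and 5.57 Ighv counts at 0.1 ng, 5.96, 5.74 and 5.81 at 0.5 ng, 4.91, 4.91 and 5.00 at 1 ng and 5.65, 5.47 and 5.47 at 5 ng. The 1 ng libraries were the lowest and the 0.5 ng libraries the highest, without overlap with any other RNA input. At 1 ng the 8 constant genes had a median log2 fold change of -0.04.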

How the data were processed

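Poly(A) RNA of 23 libraries was counted per gene. The authors deposited whole-number counts, not normalized, for 22488 genes; per the submitters' processing notes, reads were aligned with HISAT2 2.1.0 to mm8 and counted with featureCounts, whose version and strand setting are not given in the sources used here. Between 57.9% and 70.7% of nonzero counts in a library were even, so both mates of a pair may have been counted. For Ighv members alone the range was 42.3% to 86.7%, with every T cell library above every RNA library. How reads matching several Ighv genes were assigned is not given, so counts of near-identical members are uncertain.

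Each comparison was fitted on its own libraries in edgeR 4.0.16 (R 4.3.3) with TMM factors and filterByExpr, using quasi-likelihood F tests. P-values were Benjamini-Hochberg adjusted over all tested genes, with calls at 0.05, and the fit was tested on simulated data. DESeq2 1.42.0 was an alternative. Shares, CPM, effective numbers and overlaps were computed from the raw counts, and thinning averaged 100 draws without replacement (numpy 2.4.6). The members and lists were chosen with earlier results of these data known. Named in each comparison were called members that did not overlap and averaged at least 10 CPM in the higher group (up to 8 each way in 10000 T cells against 5 ng RNA, 4 elsewhere), the 10 leading members at 5 ng, the 3 leading ones of each other group and the one with the highest share in any library, 21 in all. Other members named in the text were chosen after their values were seen. Replicate numbers were not used to pair the libraries. A result of the recombination list is not reported here.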

Additional observations from a re-analysis of the deposited data

How the results depend on the processing

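The count of members called lower in 10000 T cells against 5 ng RNA was 69 and ran from 58, with all groups in 1 fit, to 75. All 99 refits of the 9 named fold changes that passed kept their direction and call. These 9 were picked from the same data for their size, so the refits are not support for them. At 500 cells 1 member, Ighv1-9, also among the 9, was called in each of the alternatives. At 1000 cells 0 were called, but the main fit and DESeq2 had 0 members to test. In 0.1 against 5 ng RNA the count of 1 became 10 with DESeq2, 0 with DESeq2 size factors, 0 with no filter on low counts, 0 with the replicate block, 16 with all groups in 1 fit, and 0 to 43 when a library was left out; a lone 0.1 ng library was then assumed to vary like the 5 ng group. In 0.5 against 5 ng RNA the count of 0 became 1 with DESeq2, 1 with no filter, and 0 to 1 when a library was left out. In 1 against 5 ng RNA it became 2 with DESeq2, 1 with no filter and 1 with the replicate block. In 100 against 10000 T cells it became 2 with DESeq2 and 1 with all groups in 1 fit. The causes were not tested. Replicate numbers were taken as names only, since nothing in the labels says that they pair libraries. Deviations from the group mean correlated between -0.0163 and 0.0203 in the 20 pairs with equal numbers, so 0 exceeded 0.1, and in 8 of the pairs the equal number gave the best match. Whether equal numbers mark a shared animal or day cannot be told from these values. The replicate block left the counts of 69 in 10000 T cells against 5 ng RNA and 1 at 500 cells as they were. Over all genes tested the block moved the calls from 1572 to 392 at 0.1 ng and from 3 to 33 at 1 ng. In 10000 T cells against 5 ng RNA it moved them from 8073 to 7778.

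Thinning to the smallest Ighv total moved the mean effective number to 34.5 at 0.1 ng, 37.4 at 0.5 ng, 37.4 at 1 ng, 37.5 at 5 ng, 42.8 at 10000 cells and 3.04 at 500 cells, since fewer counts hold fewer members. Leaving out Ighv1-9 moved it to 31.7 at 500 cells. Shares per kilobase put Ighv5-17 at 4.67% in 1 ng and 5.20% in 5 ng RNA. TMM-scaled library sizes moved the summed level to 1119 CPM at 0.1 ng and 1561 CPM at 5 ng. Without Ighv1-9, an alternative chosen after seeing the data like the thinned overlaps, it was 1087, 1371, 1220 and 1435 CPM at 0.1, 0.5, 1 and 5 ng and 72.5 CPM at 500 cells. With at most 240 Ighv counts per library at 1000 and 10000 cells, the leading members there rest on 10 to 14 counts each.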
